A study of Mus musculus with 4 samples.

Results

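The early response genes described here are Egr1, Egr2, Egr3, Nr4a1, Nr4a2, Nr4a3, Zfp36, Btg2, Ier2 and Dusp1, which are 10 of the 32285 genes in the deposited count tables. They were chosen by name as a group of zinc finger, nuclear receptor and feedback genes, after earlier results on these libraries were known, so that their ratios between libraries are given as a description with no test. They were followed in 4 single-cell libraries of C3H10T1/2, a mouse line of mesenchymal progenitor cells (MPC) that can form muscle and fat cells. Each library is a different condition: MPC that expressed wild-type histone H3 (H3WT) or the H3R26C mutant, in which the arginine at position 26 is a cysteine, each with 5-Azacitidine (5-Aza), which inhibits DNA methyltransferases, or with the vehicle DMSO. All 4 carried a lentiviral H3.1 transgene, made from human H3C2 cDNA with HA and FLAG tags and driven by the EF1 promoter, on top of their own histone genes, and were selected with puromycin. The cells are therefore transduced pools, and the mutation cannot be read from counts of the mouse genes. The 5-Aza exposure lasted 24 h at 3 µM, and cells were dissociated with TrypLE on day 28. The day of collection of the DMSO cells is not stated.

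Barcodes with at least 5000 unique molecular identifiers (UMIs), at least 1500 genes and at most 20% mitochondrial UMIs were kept as cells. This left 3710 H3WT DMSO, 5993 H3WT 5-Aza, 4727 H3R26C DMSO and 7619 H3R26C 5-Aza cells, with 84060490 to 110712425 UMIs per library and a median of 13123 to 22420 UMIs per cell. The kept cells were 59.5%, 39.9%, 72.3% and 62.9% of the deposited barcodes, in the same order. Between 24 and 58 kept barcodes were shared by each pair of libraries. Of the 10 mesenchymal progenitor markers, 9 reached 1 count per 1000000 UMIs (CPM) in every library, among them Col1a1, Col1a2 and Vim, and Nt5e did not. The 13 skeletal muscle markers summed to 16.2 and 22.9 CPM in the DMSO libraries and to 1434 and 2004 CPM in the 5-Aza libraries. Each condition has 1 library, so no test between conditions was possible. The 95% intervals given here cover counting error only. They take each UMI as independent and do not allow for the uneven spread of UMIs over cells. Allowing for that spread would widen them, by an amount that was not computed.

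Immediate early genes are transcribed within minutes of a growth factor, mechanical or stress signal and need no new protein synthesis for it. ERK and p38 kinases reach them through serum response factor, which binds the CArG box with its Elk partners, and through CREB, which binds the cyclic AMP response element TGACGTCA or its core TGACG. Their products either carry the signal on, as the Egr zinc finger factors and the Nr4a orphan nuclear receptors do, or end it. Zfp36 (tristetraprolin) binds AU-rich RNA and speeds its decay, Btg2 is an antiproliferative protein that recruits the CCR4-NOT deadenylase, and Dusp1 is a phosphatase that inactivates MAP kinases. Ier2 is a short nuclear protein. The RNAs of these genes are short-lived, and enzymatic dissociation is known to induce many of them in other tissues. All 4 libraries were dissociated with the same enzyme per the labels, and the time from dissociation to capture is not given in the sources used here.

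The sequences before the transcription starts are shown for the CArG boxes and TGACG elements they hold. Of these, only TGACG was common to most of the genes with a promoter entry. RefSeq promoters (GRCm38.p6), 250 bases before each start, were given for 7 of the 10 genes, and Egr1, Egr3 and Ier2 had no entry. The stretches run 5' to 3' on the gene's strand. Capitals mark CArG boxes and TGACG on either strand, where it reads CGTCA on the other strand, and TGACGTCA is an overlap of both.
Egr2 (chr10:67537748-67537828, plus strand): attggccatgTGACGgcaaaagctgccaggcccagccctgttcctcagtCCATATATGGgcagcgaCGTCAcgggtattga
Zfp36 (chr7:28379267-28379296, minus strand): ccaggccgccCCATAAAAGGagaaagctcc
Btg2 (chr1:134079304-134079331, minus strand): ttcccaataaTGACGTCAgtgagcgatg
Dusp1 (chr17:26508598-26508673, minus strand): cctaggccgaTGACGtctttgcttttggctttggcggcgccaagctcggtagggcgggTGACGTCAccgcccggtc
Nr4a1 (chr15:101266603-101266820, plus strand): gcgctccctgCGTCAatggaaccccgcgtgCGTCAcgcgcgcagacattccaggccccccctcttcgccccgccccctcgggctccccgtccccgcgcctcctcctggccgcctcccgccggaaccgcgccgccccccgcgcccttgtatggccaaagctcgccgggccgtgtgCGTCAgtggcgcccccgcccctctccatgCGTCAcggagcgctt
Nr4a2 (chr2:57124100-57124213, minus strand): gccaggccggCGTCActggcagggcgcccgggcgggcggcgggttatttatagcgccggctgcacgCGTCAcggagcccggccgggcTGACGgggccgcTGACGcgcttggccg
A motif was counted for a gene if the window of any of its starts held it. Egr2 had several starts, and the window before its most upstream start, at 67535499, held no CArG box and no TGACG. The Egr2 stretch shown lies before a start downstream of it. A CArG box stood before Egr2 and Zfp36, against 1.62% of the 27025 genes in the promoter table. The full TGACGTCA stood before Btg2 and Dusp1, against 1.77% of all genes, and TGACG stood before 6 of the 7 genes, all but Zfp36, against 19.8%. Nr4a1, Nr4a2 and Nr4a3 each held 4 copies of TGACG and no CArG box. The Egr family motif GCGNGGGCG was found before Nr4a1, Nr4a2, Zfp36 and Btg2, which is 4 of 7 genes against 5.33%. The Sp1 motif GGGCGG was found before all 7, against 35.4%. The AP-1 motif TGANTCA was found before none of the 7, against 7.82% of all genes. CCGGAAG, read by Ets factors, was found before Zfp36 alone (7.83% of all genes) and TATAAA before Nr4a2 alone (14.3%). All motifs were searched on both strands. These matches describe the letters in these windows and say nothing of binding.

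The 3 Egr genes were highest in H3WT DMSO and lowest in H3R26C 5-Aza. Egr1 (ENSMUSG00000038418, chromosome 18, 34859823 to 34864984, plus strand, GRCm38) was at 881 CPM in H3WT DMSO, 554 CPM in H3WT 5-Aza, 582 CPM in H3R26C DMSO and 246 CPM in H3R26C 5-Aza. Its interval was 875 to 888 CPM in the highest and 243 to 249 CPM in the lowest library, and no intervals of neighbouring libraries overlapped. Levels are counts per 1000000 UMIs with no correction for gene length. They are compared mainly between libraries for each gene, and where genes are called rarer or more abundant this refers to UMI counts. Egr2 (ENSMUSG00000037868, chromosome 10, 67535475 to 67542188, plus strand), a factor best known from Schwann cells and hindbrain, was at 23.5, 11.6, 12.3 and 4.16 CPM in the same order of libraries. Egr3 (ENSMUSG00000033730, chromosome 14, 70077203 to 70082614, plus strand), which is needed for muscle spindles, was at 27.0, 10.1, 10.7 and 4.33 CPM. For Egr2 and Egr3 the counting intervals of the H3WT 5-Aza and H3R26C DMSO libraries overlapped, between the highest and the lowest library.

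Within the Nr4a family only Nr4a1 had the same order with clear gaps. Nr4a1 (Nur77, ENSMUSG00000023034, chromosome 15, 101254269 to 101274795, plus strand) was at 251 CPM in H3WT DMSO, 86.0 CPM in H3WT 5-Aza, 145 CPM in H3R26C DMSO and 31.9 CPM in H3R26C 5-Aza. Nr4a2 (Nurr1, ENSMUSG00000026826, chromosome 2, 57106830 to 57124003, minus strand), a factor of dopamine neurons, was at 13.3, 7.65, 12.4 and 11.5 CPM in the same order. It was the only one of the 10 genes whose lowest library was H3WT 5-Aza, and its other 3 libraries lay between 11.5 and 13.3 CPM with overlapping intervals between neighbours. Nr4a3 (Nor1, ENSMUSG00000028341, chromosome 4, 48045153 to 48086447, plus strand) was rare, at 3.58, 2.99, 3.09 and 1.90 CPM, from 210 to 311 UMIs in a library. Its H3R26C 5-Aza level lay below the others, and the neighbours among the other 3 libraries overlapped.

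The feedback genes and Ier2 were also highest in H3WT DMSO and lowest in H3R26C 5-Aza, and differed in the order of the middle libraries. Zfp36 (ENSMUSG00000044786, chromosome 7, 28376784 to 28380253, minus strand) was at 415 CPM in H3WT DMSO, 390 CPM in H3WT 5-Aza, 278 CPM in H3R26C DMSO and 61.0 CPM in H3R26C 5-Aza, so that 3 libraries were high and 1 was low. Dusp1 (ENSMUSG00000024190, chromosome 17, 26505590 to 26562128, minus strand) was at 221, 181, 115 and 79.7 CPM, with the 2 H3WT libraries above the 2 H3R26C libraries. Ier2 (ENSMUSG00000053560, chromosome 8, 84661331 to 84662852, minus strand) followed the same order at 1424, 1085, 719 and 304 CPM. Btg2 (ENSMUSG00000020423, chromosome 1, 134075170 to 134079120, minus strand) was ordered like Egr1 and Nr4a1, at 179, 67.2, 106 and 19.9 CPM, with H3R26C DMSO above H3WT 5-Aza. Zfp36, Dusp1 and Ier2 thus stood higher in H3WT 5-Aza than in H3R26C DMSO, while Egr1, Nr4a1 and Btg2 stood lower, in each case with intervals that did not overlap. Zfp36 overlaps the antisense gene Gm44710, and the annotated span of Dusp1 overlaps Ergic1 on the other strand and AC122252.1 on its own. Reads in the stretch shared with AC122252.1 may have been counted for either gene or for neither. How reads in the other shared stretches were counted was not tested.

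**Figure D1:**
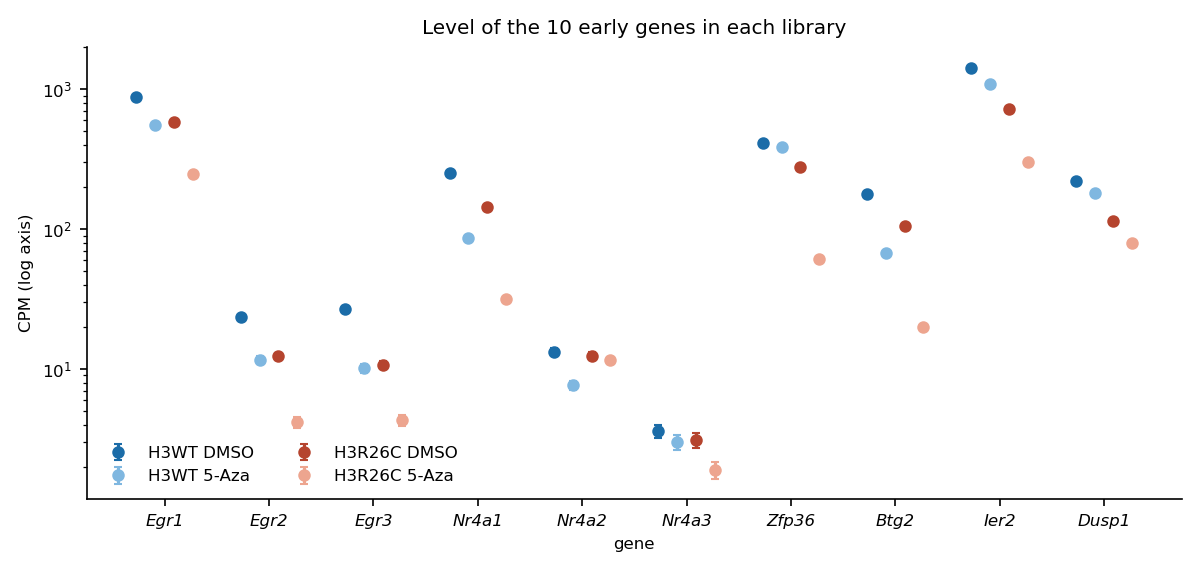
Level of each of the 10 genes in each library, in CPM on a log axis. Points are summed counts of the kept cells and bars are exact 95% Poisson intervals, many smaller than the points. H3WT DMSO is the highest point for every gene, and H3R26C 5-Aza the lowest for all but Nr4a2.

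With DMSO, all 10 genes were lower in H3R26C than in H3WT. The median log2 ratio, computed on CPM with 1 added, was -0.77, beside a median of 0.03 over the 12052 genes tested, those with a mean of at least 1 CPM in the pair of libraries. Egr3 alone was lower by 2-fold or more, at -1.26 (interval -1.37 to -1.16), beside 0.589% of all genes tested, and none of the 10 was higher by 2-fold, beside 1.82%. Ier2 at -0.99 and Dusp1 at -0.94 came next. Nr4a2 at -0.10 (-0.21 to 0.02) and Nr4a3 at -0.16 (-0.34 to 0.02) had intervals that held 0.

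With 5-Aza, the genotypes differed more, and in 1 gene the other way. The median of the 10 ratios of H3R26C to H3WT was -1.23, beside -0.03 over 12669 genes. All but Nr4a2 and Nr4a3 were lower by 2-fold or more, which is 8 of 10 beside 2.64% of all genes tested, and none was higher by 2-fold, beside 4.79%. Zfp36 stood farthest from 0 at -2.66 (-2.69 to -2.62), a level 6.39-fold lower, followed by Ier2 at -1.83 and Btg2 at -1.71. Nr4a2 was higher in H3R26C, at 0.54 (0.41 to 0.66).

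In H3WT MPC, all 10 genes were lower with 5-Aza than with DMSO, to very different extents. The median ratio was -0.70, beside 0.04 over 12306 genes. Nr4a1 at -1.54 (-1.58 to -1.50), Btg2 at -1.40 and Egr3 at -1.33 were lower by 2-fold or more, which is 3 of 10 beside 0.276% of all genes tested, and none was higher by 2-fold, beside 4.26%. Zfp36 at -0.09 (-0.11 to -0.07), Nr4a3 at -0.20 and Dusp1 at -0.28 lay nearest to 0. The direction of Zfp36 turned inside clusters of cells, where its ratio was below 0 in 1 of 5 clusters and ranged from -0.03 to 0.50.

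In H3R26C MPC, the same comparison gave a median of -1.24, beside -0.03 over 12551 genes. It was lower by 2-fold or more in 7 of 10 genes, beside 3.09% of all genes tested, and higher by 2-fold in none, beside 8.04%. Btg2 at -2.36 (-2.42 to -2.30), Zfp36 at -2.17 and Nr4a1 at -2.15 stood farthest from 0. Dusp1 at -0.52, Nr4a3 at -0.50 and Nr4a2 at -0.10 were within 2-fold, and the interval of Nr4a2 (-0.21 to 0.01) held 0. The comparisons share libraries, so that a low H3R26C 5-Aza library enters 2 of the 4 and a high H3WT DMSO library another 2.

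The 5-Aza ratio was lower in H3R26C than in H3WT for 8 of the 10 genes, with a median difference of -0.49 on the log2 scale, beside -0.09 over 12482 genes. Zfp36 had the widest gap, from -0.09 in H3WT to -2.17 in H3R26C, a difference of -2.08 (-2.12 to -2.04). It was the only one of the 10 at -1 or below, beside 1.82% of all genes tested, and none was at 1 or above, beside 2.44%. Btg2 at -0.96 and Ier2 at -0.85 followed. The difference ran the other way for Nr4a2, at 0.63 (0.47 to 0.80), and for Egr3, at 0.20 (0.04 to 0.37). With 1 library per condition these differences have approximate counting intervals and no replicate error. The uneven spread of UMIs over cells is not in them either, and the lower end of the Egr3 interval is only 0.04.

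**Figure D2:**
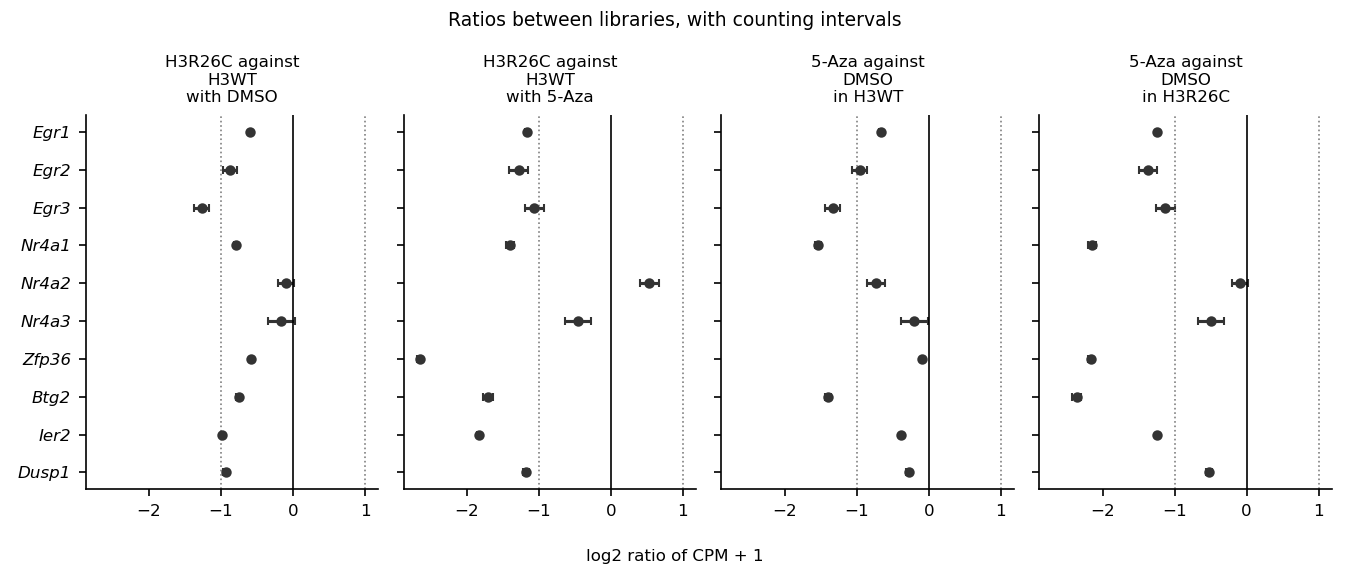
Log2 ratio of CPM with 1 added for each gene in the 4 comparisons, with exact conditional 95% intervals of the counts. The dotted lines mark 2-fold. Points lie left of 0 in every panel except Nr4a2 in the comparison of genotypes with 5-Aza, at 0.54, and Zfp36 moves from -0.09 in H3WT to -2.17 in H3R26C in the 5-Aza panels.

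The lower levels of Egr1, Zfp36 and Ier2 went with fewer cells that held a UMI. To compare shares across depths, every cell was reduced at random to 5000 UMIs. Among H3WT cells Egr1 was then found in 88.1% with DMSO and 73.6% with 5-Aza, and among H3R26C cells in 75.4% with DMSO and 45.5% with 5-Aza. The shares without thinning were 95.9%, 86.2%, 86.1% and 63.1%. Zfp36 was found in 66.1%, 56.8%, 53.5% and 20.4% of thinned cells and Ier2 in 92.1%, 87.2%, 78.0% and 57.4%, in the same order. In the unthinned cells with an Egr1 UMI, the summed Egr1 level was 912 CPM in H3WT DMSO and 372 CPM in H3R26C 5-Aza. For Zfp36 it was 466 CPM in H3WT DMSO and 156 CPM in H3R26C 5-Aza, but 523 CPM in H3WT 5-Aza, where its level over all cells was lower than with DMSO. Dusp1 was at 281 CPM and 282 CPM in the positive cells of H3WT with DMSO and with 5-Aza, and Egr2 at 78.6 CPM in those of H3WT DMSO and 77.2 CPM in those of H3R26C 5-Aza. Nr4a3 was higher in the positive cells of H3R26C 5-Aza, at 73.6 CPM, than in those of H3WT DMSO, at 44.3 CPM. For rare genes this level follows what 1 UMI is worth in a cell, which is more in a shallower library. Depth enters for Dusp1 as well, since the cells were not thinned. A Dusp1 UMI was found in 75.3% of unthinned H3WT cells with DMSO and 60.5% with 5-Aza, at medians of 22420 and 13149 UMIs per cell.

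The shares of Nr4a1, Btg2 and Dusp1 were ordered over the libraries as their levels were. Nr4a1 was found in 58.4% of thinned H3WT DMSO cells (interval 56.8% to 60.0%), 28.7% of H3WT 5-Aza cells, 38.6% of H3R26C DMSO cells and 11.8% of H3R26C 5-Aza cells. Btg2 was found in 43.9%, 22.3%, 30.4% and 8.23% of them and Dusp1 in 49.2%, 40.9%, 32.7% and 27.3%. Dusp1 thus differed least between the highest and the lowest library among these 3 genes. At least 3 Btg2 UMIs were present in 12.6% of H3WT DMSO and 0.446% of H3R26C 5-Aza cells. Egr2 was found in 10.7%, 5.07%, 5.52% and 1.89% of thinned cells and Egr3 in 11.1%, 4.57%, 4.46% and 1.80%. Nr4a2 was found in 5.69% of H3WT DMSO, 6.05% of H3R26C DMSO and 5.28% of H3R26C 5-Aza cells, with overlapping intervals, and least often in H3WT 5-Aza cells (interval 3.33% to 4.32%). Nr4a3 was found in 1.54% of H3WT cells with DMSO and 1.33% with 5-Aza, and in 1.27% and 1.01% of the H3R26C cells so treated.

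The counts were spread unevenly over cells. If each cell of a library had the same chance per UMI, Egr1 would have been found in 98.9% of thinned H3WT DMSO cells and in 72.8% of H3R26C 5-Aza cells, more than the 88.1% and 45.5% observed. At least 3 Egr1 UMIs were present in 66.3% of H3WT DMSO and 17.9% of H3R26C 5-Aza cells. Among the rarer genes in H3WT DMSO, Nr4a2 was in 5.69% of cells against 6.01% so computed, Egr2 in 10.7% against 12.1% and Egr3 in 11.1% against 13.8%. Unthinned shares of Egr2 ran from 4.73% to 29.3% and those of Nr4a3 from 2.36% to 7.06%.

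Over the 10 genes together the median thinned cell held 16 UMIs in H3WT DMSO, 9 in H3WT 5-Aza, 7 in H3R26C DMSO and 2 in H3R26C 5-Aza. Cells with none of the 10 made up 2.83%, 4.96%, 7.89% and 18.2%, and cells with at least 5 of the 10 genes made up 48.3%, 23.0%, 27.3% and 3.74%. The tenth of cells with the most early gene UMIs held 24.7% of them in H3WT DMSO and 38.7% in H3R26C 5-Aza. The summed level was 3439, 2396, 1983 and 764 CPM.

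**Figure D3:**
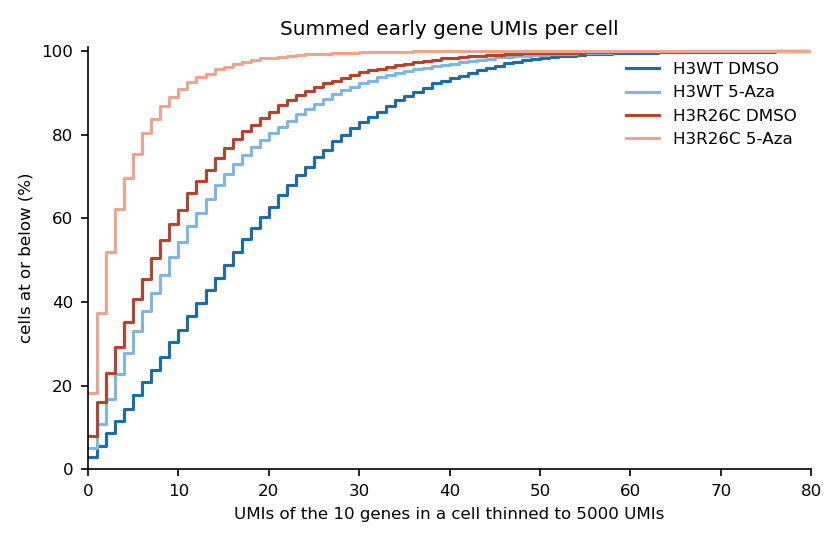
Cumulative share of cells (%) by the number of UMIs of the 10 genes in a cell thinned to 5000 UMIs, 1 curve per library. The curve of H3R26C 5-Aza lies above the others with a median of 2 UMIs, and that of H3WT DMSO lies lowest with a median of 16.

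No cell type in these libraries is known to lack these genes, so free RNA in the droplets was gauged with the muscle actin gene Acta1. In H3R26C 5-Aza it was at 7640 CPM in the skeletal muscle-like clusters described below (median 19244 UMIs per cell) and at 107 CPM in all other cells (median 12962), 37.2% of which held a UMI of it after thinning. In H3WT 5-Aza the corresponding levels were 8959 and 96.7 CPM and the share was 33.6%. Whether this Acta1 was free RNA or low expression was not tested, and neither was the part of free RNA in the shares of the early genes.

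Across the cells of a library the more abundant members were found together. Pearson correlations were computed on the logarithm of thinned counts with 1 added, within each library, over cells that share a library and a depth of 5000 UMIs, and are descriptions with no p. Egr1 and Ier2 had the highest mean over the 4 libraries, 0.553, with a range of 0.430 to 0.604. Zfp36 and Ier2 followed at 0.484, Egr1 and Zfp36 at 0.437 and Nr4a1 and Ier2 at 0.353. Egr2 and Egr3 reached 0.114 with each other, and counts of genes this sparse limit the correlation.

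Nr4a2 and Nr4a3 were hardly correlated with the rest. The correlation of Nr4a2 with the sum of the other 9 genes ran from 0.028 to 0.096 over the libraries and that of Nr4a3 from 0.020 to 0.069, against 0.453 to 0.713 for Ier2 and 0.122 to 0.260 for Egr2. Egr2 was more abundant than Nr4a2 in H3WT, at 23.5 against 13.3 CPM with DMSO and 11.6 against 7.65 CPM with 5-Aza. In H3R26C it was at 12.3 against 12.4 CPM with DMSO and rarer with 5-Aza, at 4.16 against 11.5 CPM. Nr4a3 was rarer than both, at 1.90 to 3.58 CPM, and such sparse counts limit its correlation. The median over the 45 pairs was 0.203 in H3WT DMSO, 0.135 in H3WT 5-Aza, 0.173 in H3R26C DMSO and 0.084 in H3R26C 5-Aza. Without thinning these medians were 0.345, 0.197, 0.296 and 0.125, and the mean for Egr2 and Egr3 was 0.236. The highest and the lowest median belonged to the libraries with the highest and the lowest summed level, while the other two libraries were in the opposite order. How far lower counts set the lower correlations was not tested.

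**Figure D4:**
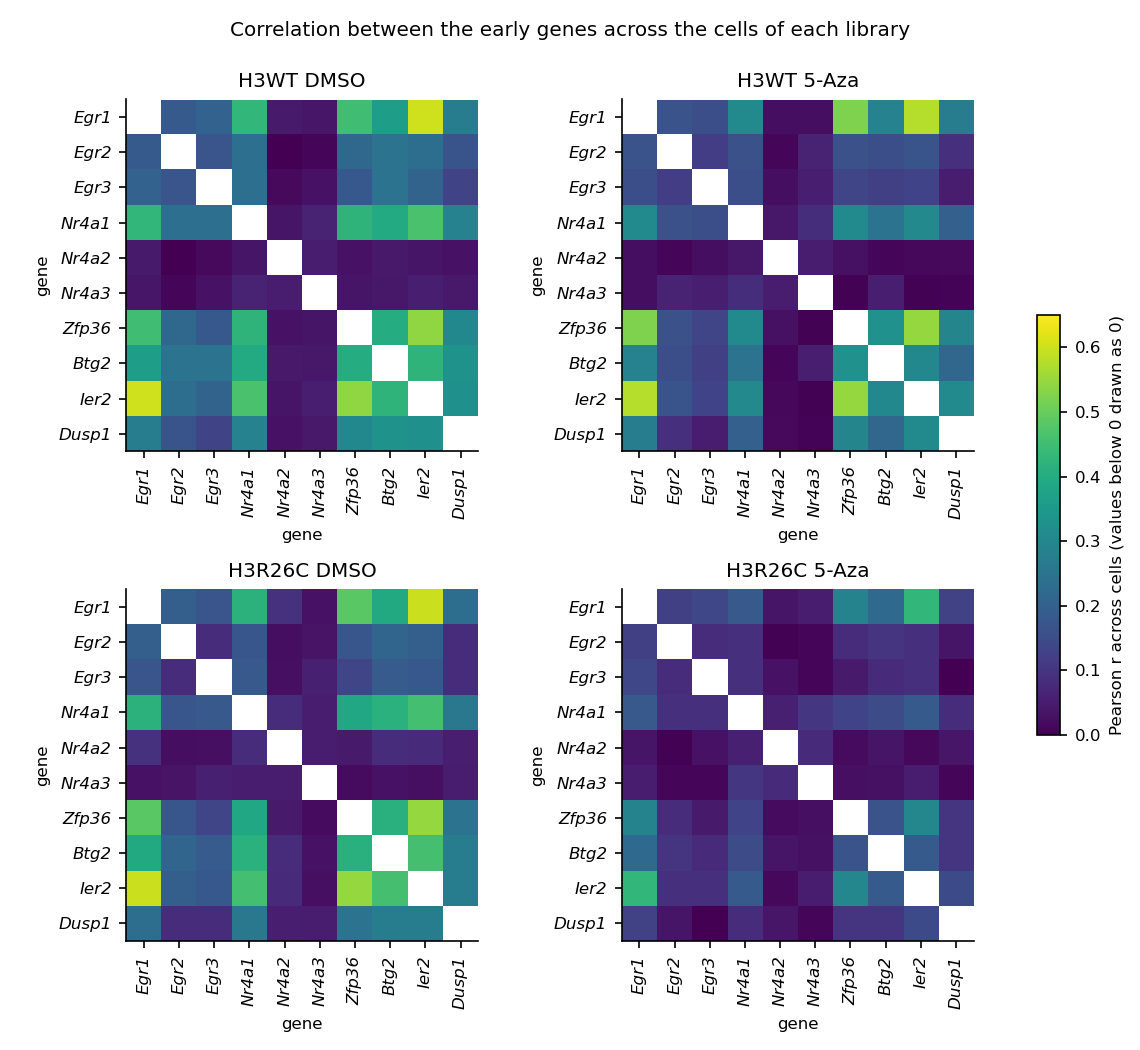
Pearson correlation between each pair of genes across the thinned cells of each library, with colour from 0 to 0.65. Egr1, Ier2 and Zfp36 form the brightest block in every library, the rows of Nr4a2 and Nr4a3 are dark, and H3R26C 5-Aza has the lowest median over pairs, 0.084.

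Outside the 10 genes, the 3 closest patterns belonged to other early genes, while some early genes ranked far lower. Among 5604 genes with at least 20 CPM in each library, the 3 highest mean correlations with the summed members were those of Junb (0.623), Fos (0.603) and Ccn1 (0.454). Ier3 (0.324), Jun (0.318), H3f3b (0.264), Zfp36l1 (0.259), Jund (0.254) and Socs3 (0.246) were also among the first 10. H3f3b and Zfp36l1 were not among the early genes listed here. Only 14 of the ranked genes were above 0.2, and the 99th percentile was 0.117. Early genes below that percentile included Fosl2 (0.053), Nfkbia (0.042) and Plk2 (0.015, rank 1220).

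The AP-1 factors, partners of the early response that dimerize as Fos and Jun proteins, were highest in H3WT DMSO except for Fosl1. Their 7 genes had a median ratio of -0.68 between genotypes with DMSO and -1.25 with 5-Aza. With 5-Aza, 4 were lower and 1 was higher by 2-fold, beside 2.64% and 4.79% of all genes tested. Fos was at 921, 494, 438 and 44.7 CPM in the order H3WT DMSO, H3WT 5-Aza, H3R26C DMSO and H3R26C 5-Aza, and Fosb at 110, 25.8, 41.3 and 1.82 CPM. Fosl2 was at 74.7, 56.8, 46.4 and 55.6 CPM, lowest in H3R26C DMSO and not in H3R26C 5-Aza. Fosl1, a late Fos relative that lasts longer after a signal, ran the other way at 7.24, 12.0, 21.5 and 59.8 CPM. The other 25 immediate early genes listed were closer to no difference, with medians of -0.35 between genotypes with DMSO, -0.14 between genotypes with 5-Aza, -0.10 for 5-Aza in H3WT and -0.05 for 5-Aza in H3R26C. Atf3, a stress-induced factor, was at 31.3, 24.7, 14.0 and 9.01 CPM and Klf10, a TGF-beta response factor, at 10.5, 12.8, 10.7 and 23.3 CPM.

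A list of 15 further MAP kinase phosphatases and inhibitors of growth factor signalling did not follow Dusp1 in its medians. In each comparison 4 to 6 of the genes tested lay below 0. Their median ratios were 0.13 between genotypes with DMSO, 0.41 between genotypes with 5-Aza, 0.21 for 5-Aza in H3WT and 0.46 for 5-Aza in H3R26C. None was lower by 2-fold in these comparisons, beside 0.276% to 3.09% of all genes tested. In the same order 1, 2, 2 and 3 were higher by 2-fold, beside 1.82%, 4.79%, 4.26% and 8.04%. Dusp6, a phosphatase for ERK, was at 4.79, 6.86, 6.76 and 21.5 CPM. Spry1, an inhibitor of receptor tyrosine kinase signalling, was at 1.38, 9.09, 6.45 and 23.1 CPM, and Dusp14 at 8.90, 21.4, 16.5 and 40.7 CPM, all in the order given above. These 3 genes were lowest in H3WT DMSO and highest in H3R26C 5-Aza, where all 10 members were highest in H3WT DMSO. Dusp5, another ERK phosphatase, was highest in H3WT DMSO, at 20.2 CPM against 10.9 to 11.9 CPM in the others.

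Most kinases and factors upstream differed little. For the 16 genes, which include Mapk3, Srf, Elk1 and Creb1, the medians lay between -0.15 and -0.03 in the 4 comparisons. None was lower by 2-fold, beside 0.276% to 3.09% of all genes tested, so that this count does not set the list apart. Rps6ka1, a kinase activated by ERK, was higher by 2-fold or more in H3R26C 5-Aza than in H3WT 5-Aza and H3R26C DMSO, at 1.66, 2.43, 2.00 and 6.77 CPM in the order of libraries used above. It was named after its values were seen. Srf, the CArG box factor, was at 19.4, 16.8, 16.3 and 13.5 CPM. Of the 12 paralogues and partners, Btg1, a relative of Btg2, was at 44.3, 53.5, 52.1 and 130 CPM, with the highest level where Btg2 was lowest. The median of this list lay between -0.03 and 0.03 in the 4 comparisons. Among 8 heat shock genes the medians of those tested lay between -0.16 and -0.07, while the co-chaperone gene Dnajb1 was at 125, 70.0, 63.8 and 44.1 CPM, in the order of Dusp1 and Ier2. The 5 nuclear-retained RNAs had medians from -0.46 to -0.04. The part of a heat or stress response in the early gene levels was not tested.

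The difference between libraries in the summed level of the 10 genes was also present inside most clusters. The kept cells were clustered together without the early genes among the variable genes, which yielded 10 clusters, A to J from the largest to the smallest. H, led by Myog and Mylpf, and I, led by Ttn and Neb, met 12 of the 13 skeletal muscle markers each and J, led by Cfd and Adipoq, met 10 of the 13 adipocyte markers. The others were not named, and their makeup differed strongly between libraries. Cluster A, led by Eln and Colec10, held 3120 H3WT cells with DMSO and 3685 with 5-Aza, and 2049 H3R26C cells with DMSO and 183 with 5-Aza. Cluster B, led by Slpi and Ifi27l2a, held 16, 1019, 54 and 4770 cells, where the order is H3WT DMSO, H3WT 5-Aza, H3R26C DMSO and H3R26C 5-Aza. Fosb and Fos were among the 10 leading genes of A although they had been left out.

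Within cluster A the 10 genes summed to 3656 CPM in H3WT DMSO, 2756 CPM in H3WT 5-Aza, 2417 CPM in H3R26C DMSO and 1385 CPM in H3R26C 5-Aza, the order of the whole libraries. The log2 ratio of H3R26C to H3WT in A was -0.60 with DMSO and -0.99 with 5-Aza. Within cluster B it was -1.36 with 5-Aza, from 2070 and 804 CPM. In the 7 clusters with at least 50 cells in both 5-Aza libraries, the ratio of genotypes lay between -1.85 and -0.99, and in the 5 such clusters of the DMSO libraries between -0.82 and -0.23. The 5-Aza ratio in H3R26C lay between -1.54 and -0.45 in 5 clusters. In H3WT it was below 0 in 4 of 5, and 0.14 in cluster E, led by the histone gene Hist1h1b, where H3WT DMSO had only 50 cells. These sums are made up mostly of Ier2 and Egr1, and single genes did not all follow them. The ratios of Btg2 were below 0 in every cluster compared. Those of Nr4a3 were below 0 in 5 of 7 clusters between genotypes with 5-Aza and in 3 of 5 in each other comparison.

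Zfp36, the gene with the widest gap, was lower in H3R26C 5-Aza inside clusters as well. Its level in A was 454, 480, 356 and 165 CPM in the order of libraries given above, and in B it was 279 CPM in H3WT 5-Aza and 67.7 CPM in H3R26C 5-Aza. The ratio of genotypes with 5-Aza ran from -3.03 to -1.54 over 7 clusters. Its differences in the comparisons with smaller ratios did not hold in every cluster. With DMSO the ratio of genotypes was below 0 in 3 of 5 clusters and ran from -0.43 to 0.45, and the 5-Aza ratio in H3WT was 0.08 in A (0.06 to 0.11). Nr4a2 did not keep its difference in the same way. In A it was at 5.92 CPM in H3WT 5-Aza and 5.82 CPM in H3R26C 5-Aza, the latter from 13 UMIs, and in B at 10.9 and 12.9 CPM. Its ratio of genotypes with 5-Aza was below 0 in 4 of 7 clusters, with intervals that held 0 in all 7 but B. How much of the difference between whole libraries came from the makeup by cluster was not tested.

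**Figure D5:**
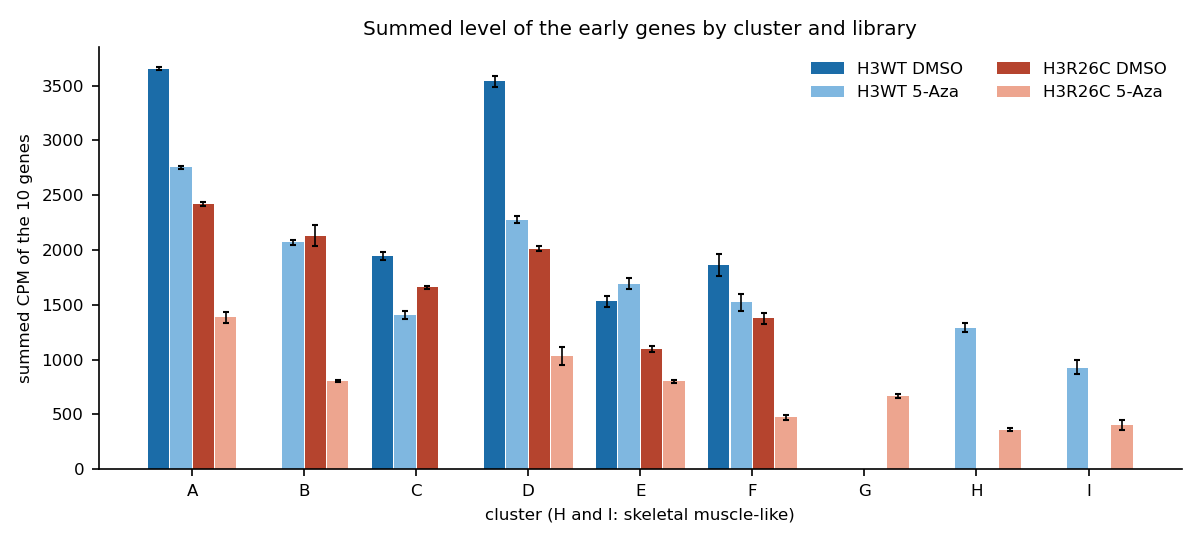
Summed CPM of the 10 genes by cluster and library, for libraries with at least 50 cells in the cluster, with exact 95% Poisson intervals. H3R26C 5-Aza is the lowest bar in each cluster it shares with other libraries, at 1385 CPM in A and 804 CPM in B.

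In the skeletal muscle-like cells the sum of the early genes, made up mostly of Ier2 and Egr1, was low. The genes summed to 1292 CPM in cluster H and 927 CPM in cluster I of H3WT 5-Aza, against 2396 CPM in the whole library, and to 357 and 398 CPM in H3R26C 5-Aza, against 764 CPM. Some single genes were not low. Btg2 was at 24.4 CPM in I of H3R26C 5-Aza, from 19 UMIs, against 19.9 CPM in the library. Nr4a3 was at 7.03 CPM in H of H3WT 5-Aza, from 23 UMIs, against 2.99 CPM. Cluster F, led by Gm26917, Neat1 and Malat1, had a median of 7962 UMIs and 7.56% mitochondrial UMIs per cell. In it the 10 genes summed to 1862 and 1523 CPM in H3WT with DMSO and 5-Aza, and to 1375 and 471 CPM in H3R26C. Each sum was below that of the whole library. Egr3 and Nr4a2 went the other way, above their levels in the whole library in each case. Btg2, Nr4a3 and Egr2 did so in some libraries only. Egr3 was at 48.5 CPM in H3WT DMSO, 29.7 CPM in H3WT 5-Aza, 22.2 CPM in H3R26C DMSO and 12.6 CPM in H3R26C 5-Aza. Nr4a2 was at 14.8, 7.91, 16.6 and 15.2 CPM in the same order. The Egr3 levels rest on 30 to 48 UMIs in a library and those of Nr4a2 on 8 to 41.

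The summed level of the 10 genes was lower in cells called G2/M by the cell cycle scores. In H3WT DMSO it was 3580 CPM in G1, 3147 CPM in S and 1531 CPM in G2/M cells, and in H3R26C 5-Aza it was 833, 722 and 577 CPM. The same order held in the other libraries, from 2530 to 1352 CPM in H3WT 5-Aza and from 2147 to 907 CPM in H3R26C DMSO. Zfp36 was at 433 CPM in G1 and 147 CPM in G2/M cells of H3WT DMSO and at 73.7 and 32.0 CPM in those of H3R26C 5-Aza. Egr1 was at 916 and 404 CPM in the same phases of H3WT DMSO, but at 252 and 211 CPM in H3R26C 5-Aza. Nr4a2 was at 13.4 CPM in G1 and 14.6 CPM in G2/M cells of H3WT DMSO, with intervals that overlapped. The summed levels of the 3 phases of H3R26C 5-Aza all lay below each phase of the other libraries. When cells were put into 3 equal groups by total UMIs, the group with the most UMIs had the lowest summed level in each library, at 2784 CPM against 4070 CPM in the group with the fewest in H3WT DMSO and at 662 CPM against 878 CPM in H3R26C 5-Aza. Median UMIs per cell also differed between libraries, from 13123 in H3R26C 5-Aza to 22420 in H3WT DMSO, and the part of this in the levels was not tested. In the barcodes that the cell filter left out, the summed level had the same highest and lowest library, at 1469 CPM in H3WT DMSO, 763 CPM in H3WT 5-Aza, 947 CPM in H3R26C DMSO and 431 CPM in H3R26C 5-Aza.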

How the data were processed

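RNA of single cells was measured in 4 libraries, 1 for each condition. The deposited matrices hold UMI counts, whole numbers per gene and barcode, which the authors made with Cell Ranger, given as 6.1.0 by the file headers and as 6 by the submitters' processing notes, which also name Seurat 4, on mm10 (GRCm38). No normalization and no cell filter beyond Cell Ranger's own had been applied. The filter of the study's methods was used here, and no doublets were removed. No column was left unmapped.

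Counts were summed over cells, scaled to CPM and compared as log2 ratios with a pseudocount of 1 CPM. Intervals are at the 95% level, exact Poisson for levels and exact binomial (Clopper-Pearson) for shares of cells. Those of ratios are the exact conditional interval of both counts, to whose ends the pseudocount was then added. Intervals of differences between ratios are approximate, as the root of the summed squares of the half-widths of both ratios. Cells were clustered with Seurat 5.3.0 and sctransform 0.4.2 in R 4.3.3, with cell cycle scores regressed, on 20 principal components at a resolution of 0.2. Other steps used Python 3.11.15, numpy 2.4.6, scipy 1.17.1, pandas 2.3.3 and matplotlib 3.10.9. Libraries held 84060490 to 110712425 UMIs in kept cells.

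The 10 genes, the gene lists and the comparisons were chosen with earlier results of these data known. All 10 genes are named. List genes were named from those with the largest differences among genes of at least 10 CPM in either library, with the members of the upstream list named as examples. Spry4, Egr4 and other genes below that level are only counted, except Rps6ka1 and the marker Nt5e, which are named. Neighbours in likeness are taken from the first 10 of the ranking, of which 1 is not reported here. The scripts for ratios and correlations were tested on simulated data. The alternatives changed the pseudocount, scaling, cell filter, cells and clusters.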

Additional observations from a re-analysis of the deposited data

Results flagged for a closer look

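Nr4a2 was the only one of the 10 genes whose ratio of H3R26C to H3WT pointed in opposite directions in the DMSO and the 5-Aza libraries. The log2 ratio was -0.10 with DMSO, with an interval of -0.21 to 0.02 that holds 0, and 0.54 with 5-Aza, with an interval of 0.41 to 0.66. The difference was not tested, because each condition has 1 library. In the barcodes left out by the cell filter, no member was higher with 5-Aza than with DMSO by intervals that did not overlap.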

How the results depend on the processing

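No paired analysis was possible because there is a single library for every condition. The 9 alternatives run on the ratios included 1, the removal of cells whose barcode is shared with another library, that was chosen after seeing the data. All 360 ratios and 90 differences of single genes kept their sign under them. Their size was less stable. Among the medians, the pair correlations and the summed ratios of the largest cluster, 13 values moved past the bounds set for them and 44 did not. For the medians of ratios and differences, the bounds were the medians over the genes of the ends of their intervals. For the summed ratios of the largest cluster they were counting intervals, and for the correlations a fixed change. Among the other values, which include single genes and shares of cells, 163 moved and 375 did not. The median ratio between genotypes with DMSO was -0.81 with size factors and -0.66 in G1 cells. With 5-Aza it was -1.32 with a pseudocount of 0.1 CPM. The median 5-Aza ratio in H3R26C was -1.26 with that pseudocount, -1.27 with the stricter cell filter and -1.18 without muscle-like and adipocyte-like cells. The median correlation of pairs without thinning was 0.345 in the H3WT DMSO, 0.197 in the H3WT 5-Aza and 0.296 in the H3R26C DMSO library. With the early genes among the variable genes, the summed ratio within the largest cluster was -0.57 between genotypes with DMSO, -0.87 between genotypes with 5-Aza, -0.36 for 5-Aza in H3WT and -0.67 for 5-Aza in H3R26C. The cause of these shifts was not tested. Depth limits Nr4a3 most, with 210 to 311 UMIs in a library.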
